A study of Mus musculus with 12 samples.

Results

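The Serpin genes were examined in a count table of mouse cornea RNA. Members were all rows whose gene symbol begins with Serpin, which gave 55 of the 19702 genes in the table. All 55 are annotated as protein coding. They lie on 10 chromosomes and fall into 9 clades, of which clade A has 21 members, clade B has 24, and clades C to I have 10 between them. Most sit in tandem clusters. The 21 clade A genes span 0.798 Mb of chromosome 12, and the clade B genes form a group of 12 over 0.748 Mb of chromosome 1 and another group of 12 over 1.16 Mb of chromosome 13.

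Serpins are a superfamily of proteins that mostly inhibit serine proteases, and in some cases cysteine proteases. An inhibitory serpin offers an exposed stretch, the reactive centre loop, as bait. The protease cuts the loop and becomes trapped as the loop inserts into the body of the serpin, and the sequence of the loop largely sets which protease is caught. Clade A serpins are mostly secreted plasma proteins, many of them made by the liver. Clade B serpins mostly act inside cells and are found in epithelia and leukocytes. A few members, such as maspin (Serpinb5), the collagen chaperone Serpinh1 and pigment epithelium-derived factor (Serpinf1), do not work as protease inhibitors.

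There were 4 groups of 3 libraries. Control corneas had neither injury nor treatment. In the Vehicle group the injury was made with BAK (benzalkonium chloride, a detergent used to preserve eye drops) and the labels give no treatment. Whether these eyes received drops without a biologic is not stated. UCS and UCPRP corneas had the same injury and were given one of a pair of cord blood-derived biologics, whose abbreviations the labels do not spell out. BAK was dosed as 5 µl of 0.2% per eye daily for 14 days, and each biologic as 5 µl of 20% onto the cornea 3 times daily for 10 days. The sources used here do not state strain, age, time of harvest, or whether the days of treatment followed or overlapped those of BAK. Each library pooled 6 corneas of 3 mice, so the spread between libraries is that between pools. RNA came from whole tissue, and in bulk samples of this kind fewer cells of a type and less RNA per cell cannot be told apart.

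Libraries held 18.55 to 20.44 M estimated counts. Levels are given as CPM (counts per M of the TMM-scaled library total), and 3 counts, the limit that a count of 0 allows, correspond to 0.146 to 0.178 CPM (counting error only). The corneal epithelial keratin Krt12 stood at 15897 to 32863 CPM in Control and at 3.29 to 186 CPM in the 9 injured libraries, so the defining marker of corneal epithelium was nearly absent after injury. The summed goblet cell and conjunctival markers were 2796 to 6508 CPM in Control and 13746 to 20559 CPM in the injured libraries. Retina and lens markers, which mark carry-over of other eye tissue, varied between libraries of each group, from 2605 to 15749 CPM and from 58.1 to 26988 CPM. The circadian gene Dbp was low (14.7 to 25.9 CPM) in 4 libraries, namely Control 3, Vehicle 1, Vehicle 2 and UCS 1, and high (139 to 280 CPM) in the other 8.

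Of the 55 Serpin genes 31 had enough counts to test, and 24 did not reach the filter. Of those 24, Serpina3b had no count in any library, 10 had 5 counts or fewer in all 12 libraries together, and the highest total was 88.45 counts. Among the genes too low to test was Serpinc1, which encodes the clotting inhibitor antithrombin (0 to 0.408 CPM). In Control the most abundant Serpin transcripts per kilobase of transcript were those of Serping1, the C1 inhibitor of complement (152 ± 11 CPM per kb, SD, n = 3), Serpinb5 (142 ± 25.5 CPM per kb) and Serpinf1 (122 ± 46.5 CPM per kb). Serpinb3a ranked 7 in Control at 48.6 ± 21.7 CPM per kb. In Vehicle it ranked 1, at 674 ± 112 CPM per kb, followed by Serpina3n at 285 ± 101 CPM per kb, while Serpinb5 stood at rank 6.

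**Figure D1:**
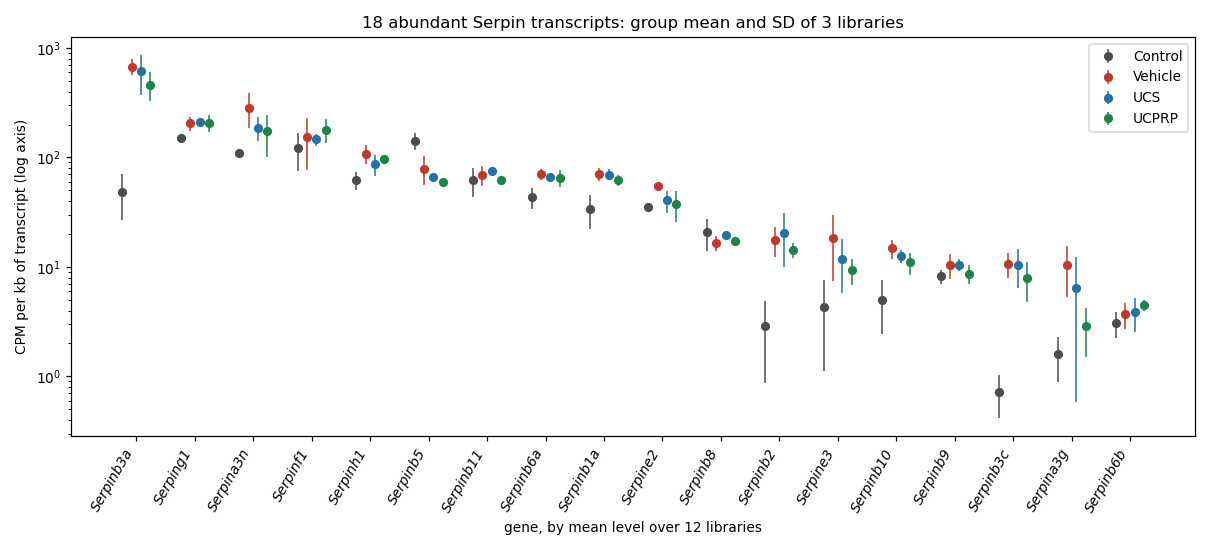
Level of 18 abundant Serpin transcripts in CPM per kb of transcript on a log axis, as mean (point) and SD (bar) of 3 libraries in each group. Serpinb3a goes from 48.6 CPM per kb in Control to 674 in Vehicle, and Serpinb5 from 142 to 79.3, while Serpinf1 goes from 122 to 154 with overlapping bars.

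The CPM of all Serpin genes summed to 1638, 2207 and 1722 in the Control libraries and to 4142, 3120 and 3558 in Vehicle. The sums were 2766, 3345 and 3434 in UCS and 2885, 3055 and 2670 in UCPRP, so all 9 injured libraries lay above the highest Control library. Serpinb3a made up 2.45 to 5.08% of the sum in Control and 29.4 to 30.9% in Vehicle. Without Serpinb3a the sum was 1777 ± 279 CPM in Control, 2515 ± 331 CPM in Vehicle, 2186 ± 42.6 CPM in UCS and 2118 ± 301 CPM in UCPRP. Serpinb5 was the largest contributor in every Control library, at 19.9 to 20.8% of the sum, and took 4.52 to 6.78% in the injured libraries.

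The first comparison asks what differed between BAK-injured corneas with no labelled treatment and uninjured ones. In Vehicle against Control, 17 of the 31 tested Serpin genes rose (54.8%) and 1, Serpinb5, fell, by edgeR's quasi-likelihood test at an adjusted p under 0.05. Of all 16124 genes tested, 9.58% were called higher and 6.92% lower. The median log2 fold change was 1.06 over the 31 Serpin genes and −0.00 over all genes. The lowest Vehicle value lay above the highest Control value for 20 Serpin genes, and the reverse held for 1, against backgrounds of 15.2% and 15.4% of all genes. A gene that is high only after injury passes the count filter through the injured libraries. Of the 31, 24 were above the filter level of 0.526 CPM in all 3 Control libraries, and 13 of these were called higher, where the share among all genes above that level was 8.75%. The other 7 were Serpina1b, Serpina1e, Serpina3f, Serpinb1b, Serpinb3b, Serpinb3d and Serpind1.

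**Figure D2:**
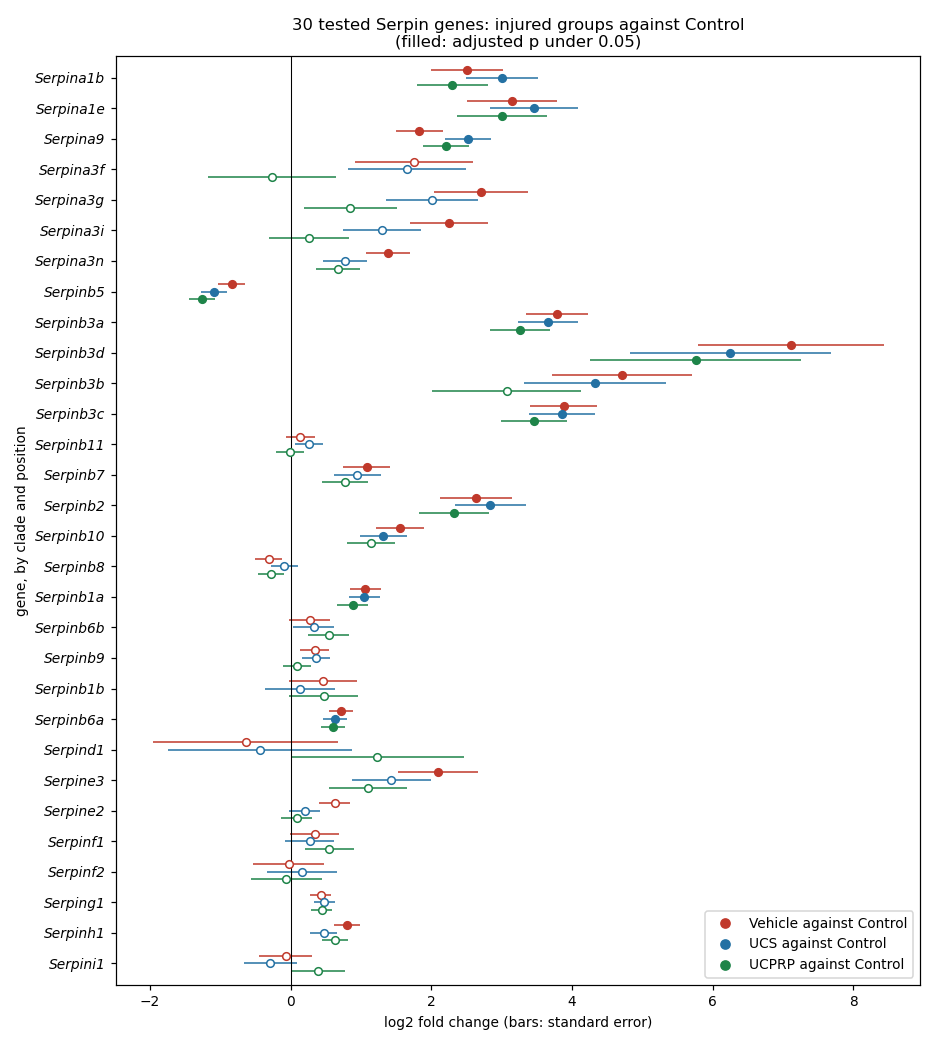
Log2 fold change (points) and standard error (bars) of 30 tested Serpin genes in Vehicle, UCS and UCPRP, each against the same 3 Control libraries, with filled points where the adjusted p was under 0.05. The 4 Serpinb3 genes lie farthest to the right in Vehicle, from 3.79 to 7.11 (Serpinb3d, whose fitted value depends on the prior count since Control had none). Serpinb5 is the only gene with filled points to the left of 0. Among genes of clades D to I only Serpine3 and Serpinh1 have filled points, and only in Vehicle.

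Within clade B the cluster on chromosome 1 had 7 of 10 tested genes higher and 1 lower. Its largest changes were in the Serpinb3 genes, mouse counterparts of the human squamous cell carcinoma antigens, which inhibit proteases of both the serine and the cysteine class. The 4 genes are neighbours, but their loops differ. The coding bases that start at the hinge of the reactive centre loop are shown because they tell apart 4 close copies whose levels differed widely. Each run has 60 bases, starts at base 1006 of the coding sequence and lies in the last of 7 coding exons, on the minus strand of chromosome 1 in GRCm38 (GENCODE M21). Capitals mark bases that differ from Serpinb3a.
Serpinb3a, chr1:107046115-107046174: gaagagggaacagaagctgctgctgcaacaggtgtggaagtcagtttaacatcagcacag
Serpinb3b, chr1:107154468-107154527: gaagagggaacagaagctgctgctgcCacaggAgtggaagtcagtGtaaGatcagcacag
Serpinb3c, chr1:107271725-107271784: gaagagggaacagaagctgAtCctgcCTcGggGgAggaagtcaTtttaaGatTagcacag
Serpinb3d, chr1:107078292-107078351: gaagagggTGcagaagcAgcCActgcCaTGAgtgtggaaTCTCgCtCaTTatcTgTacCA
Over these bases Serpinb3b differed from Serpinb3a at 4 positions, Serpinb3c at 10 and Serpinb3d at 21. Of the Serpinb3b differences, 1 was in the first 30 bases, at the hinge, and 3 in the last 30; for Serpinb3d the split was 8 and 13.

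Serpinb3a (chromosome 1, 107045587 to 107052303) stood at 40.1, 109 and 87.4 CPM in Control and at 1279, 916 and 1081 CPM in Vehicle. It was at 549, 1140 and 1297 CPM in UCS and 492, 889 and 874 CPM in UCPRP. Every injured library was above every Control library, and replicate 1 of UCS and of UCPRP were the lowest injured libraries. The difference between Vehicle and Control was 13.9-fold (log2 fold change 3.79 ± 0.44 SE, adjusted p = 2.39e-04 in edgeR). Serpinb3c had the same order of group means at a lower level, with 0.618, 1.54 and 1.45 CPM in Control and 22.2, 12.9 and 17.9 CPM in Vehicle. It was at 9.72, 21.8 and 20.9 CPM in UCS, and 7.2, 15.2 and 17.3 CPM in UCPRP, which overlapped Vehicle. Its difference was 14.7-fold (log2 fold change 3.88 ± 0.47 SE, adjusted p = 3.00e-04 in edgeR).

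Serpinb3b and Serpinb3d were barely detected without injury. Serpinb3b had 0, 0.356 and 0 CPM in Control, 3.56, 3.12 and 2.45 CPM in Vehicle, 0.531, 1.98 and 4.49 CPM in UCS and 0.853, 0.616 and 1.44 CPM in UCPRP (log2 fold change 4.71 ± 1.0 SE for Vehicle, adjusted p = 0.0077 in edgeR). All injured libraries were above Control, UCS 1 by the least. Serpinb3d had no count in any Control library, 1.14, 0.83 and 0.715 CPM in Vehicle, 0.106, 0.696 and 0.664 CPM in UCS and 0.213, 0.154 and 0.668 CPM in UCPRP (adjusted p = 0.00583 in edgeR for Vehicle). Set against 3 counts per Control library, Vehicle was at least 5.5-fold higher, UCS at least 3.01-fold and UCPRP at least 2.12-fold. The transcripts are similar enough to share reads in part: 8.2% of the 75-base stretches of Serpinb3a, mostly in the gene model Gm8080, 2.3% of those of Serpinb3b and 0.9% of those of Serpinb3d also occur in other genes. The sources used here do not state how reads were divided between such copies.

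Promoters of 3 of these genes are shown because the genes moved together and their upstream sequence is also alike. The windows are the 250 bases before the first-listed RefSeq transcription start (GRCm38.p6), read 5′ to 3′ on the minus strand. Capitals mark matches to the TATA box letters TATAAA on either strand.
Serpinb3a, chr1:107052304-107052553: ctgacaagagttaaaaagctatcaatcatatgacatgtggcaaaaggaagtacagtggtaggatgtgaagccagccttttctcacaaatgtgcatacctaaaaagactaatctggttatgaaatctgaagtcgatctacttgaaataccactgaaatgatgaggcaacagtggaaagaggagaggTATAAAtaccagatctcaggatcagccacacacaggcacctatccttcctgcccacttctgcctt
Serpinb3b, chr1:107161115-107161364: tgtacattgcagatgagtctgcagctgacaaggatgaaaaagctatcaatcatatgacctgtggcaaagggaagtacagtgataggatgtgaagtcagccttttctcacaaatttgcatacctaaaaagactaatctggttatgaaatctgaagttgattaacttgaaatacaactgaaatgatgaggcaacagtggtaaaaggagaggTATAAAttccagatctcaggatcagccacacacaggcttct
Serpinb3c, chr1:107278372-107278621: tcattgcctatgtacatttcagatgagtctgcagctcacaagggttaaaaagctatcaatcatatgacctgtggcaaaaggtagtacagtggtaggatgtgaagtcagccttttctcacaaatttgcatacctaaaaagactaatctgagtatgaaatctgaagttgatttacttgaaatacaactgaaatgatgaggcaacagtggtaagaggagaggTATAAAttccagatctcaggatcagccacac
Aligned over the window, Serpinb3b and Serpinb3c were 88.1% identical, Serpinb3a and Serpinb3b 77.0%, and Serpinb3a and Serpinb3c 71.8%. Serpinb3d, which was also called higher, was only 49.3 to 51.7% identical to the others. TATAAA was found in 7 of the 27 tested Serpin genes that have an entry (all 4 Serpinb3 genes, Serpinb2, Serpinb7 and Serpina3f) and in 13% of the 27025 promoters listed for all genes.

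Farther along the same cluster, Serpinb2, plasminogen activator inhibitor type 2, an inhibitor of urokinase, stood at 1.85, 5.51 and 9.73 CPM in Control. It was at 47.9, 27.3 and 31.4 CPM in Vehicle, 29.9, 27.4 and 64.8 CPM in UCS and 23.4, 32 and 30.3 CPM in UCPRP. Every injured library was above every Control library, and Vehicle was 6.23-fold above Control (log2 fold change 2.64 ± 0.51 SE, adjusted p = 0.00423 in edgeR). Its neighbour Serpinb10, or bomapin, a serpin of blood-forming cells, stood at 2.73, 6.4 and 8.8 CPM in Control, 21.8, 15.7 and 15.5 CPM in Vehicle, 14.2, 13.4 and 17.3 CPM in UCS, and 10.6, 16.4 and 12.5 CPM in UCPRP (log2 fold change 1.56 ± 0.34 SE for Vehicle, adjusted p = 0.00856 in edgeR). The lowest injured library, at 10.6 CPM, was above the highest Control library. For Serpinb10, 11.4% of 75-base stretches also occur in transcripts annotated to Serpinb2, so part of its count may not be its own. Serpinb7, or megsin, was low, at 0.875, 1.78 and 1.97 CPM in Control, 3.46, 2.64 and 3.67 CPM in Vehicle, 2.02, 3.8 and 3.11 CPM in UCS and 2.24, 2.72 and 2.93 CPM in UCPRP. Every injured library was above Control. Its adjusted p of 0.0457 (log2 fold change 1.08, SE 0.33, edgeR) was above 0.05 in 13 of 20 other fits, among them those without Control 1 (0.125), Control 2 (0.0714), Vehicle 1 (0.109), Vehicle 2 (0.0563) or Vehicle 3 (0.113). Leaving out UCS 2, UCS 3 or any of the UCPRP libraries gave 0.0511 to 0.0663.

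Serpinb5, at the other end of the cluster (106861175 to 106883348), encodes maspin, a serpin of epithelial cells. It was the only Serpin gene that fell. Control libraries were at 339, 459 and 343 CPM, and injured ones at 281, 194 and 161 CPM in Vehicle, 177, 176 and 182 CPM in UCS and 163, 167 and 149 CPM in UCPRP. All 9 injured libraries were below the lowest Control library. In Vehicle against Control the log2 fold change was −0.84 (SE 0.19, adjusted p = 0.01 in edgeR), and it was not called when only these 6 libraries were fitted (adjusted p = 0.0718). Corneal epithelial markers moved in the same direction, with 7 of 8 called lower and sums of 41475 to 85014 CPM in Control and 9672 to 14288 CPM in the injured libraries. Their part in the Serpinb5 result was not tested. Serpinb8, a furin inhibitor, averaged 94.8 ± 31 CPM without injury and 76.4 ± 12 CPM in Vehicle. Serpinb11 was at 95.2, 172 and 123 CPM in Control and 177, 121 and 133 CPM in Vehicle. Neither was called (log2 fold changes −0.31 and 0.14, with 95% intervals −0.74 to 0.12 and −0.29 to 0.57). Serpinb11 was at 148, 154 and 164 CPM in UCS and 125, 137 and 126 CPM in UCPRP.

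**Figure D3:**
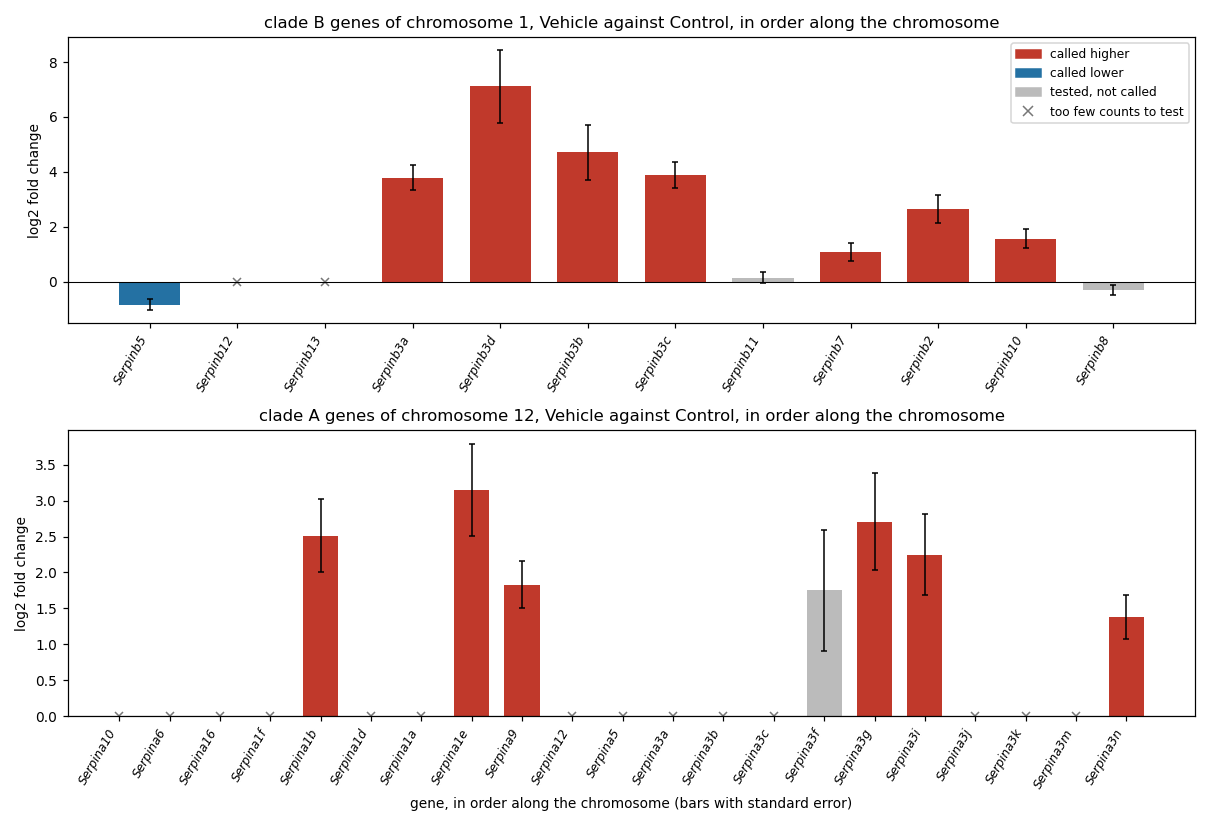
Log2 fold change in Vehicle against Control with its standard error for the clade B genes of chromosome 1 (top) and the clade A genes of chromosome 12 (bottom), in order along the chromosome, with crosses for genes too low to test. On chromosome 1 the genes called higher fall into 2 runs, Serpinb3a to Serpinb3c and Serpinb7 to Serpinb10, separated by Serpinb11 and flanked by Serpinb5 (−0.84) and Serpinb8 (−0.31).

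The upstream windows of Serpinb2, Serpinb10 and Serpinb5 are shown because all hold the AP-1 letters TGANTCA, whichever way the gene moved. All are on the plus strand, and capitals mark TGANTCA and TATAAA.
Serpinb2, chr1:107511173-107511422: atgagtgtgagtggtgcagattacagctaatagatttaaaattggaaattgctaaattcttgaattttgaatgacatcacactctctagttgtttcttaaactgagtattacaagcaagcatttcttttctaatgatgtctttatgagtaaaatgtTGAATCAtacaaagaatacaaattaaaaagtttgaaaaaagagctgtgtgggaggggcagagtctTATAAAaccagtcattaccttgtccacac
Serpinb10, chr1:107528753-107529002: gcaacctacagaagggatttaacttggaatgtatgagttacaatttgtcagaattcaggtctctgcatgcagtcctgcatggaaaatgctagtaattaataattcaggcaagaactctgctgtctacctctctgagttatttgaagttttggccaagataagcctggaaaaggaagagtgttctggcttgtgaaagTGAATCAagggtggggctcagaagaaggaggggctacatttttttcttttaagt
Serpinb5, chr1:106860925-106861174: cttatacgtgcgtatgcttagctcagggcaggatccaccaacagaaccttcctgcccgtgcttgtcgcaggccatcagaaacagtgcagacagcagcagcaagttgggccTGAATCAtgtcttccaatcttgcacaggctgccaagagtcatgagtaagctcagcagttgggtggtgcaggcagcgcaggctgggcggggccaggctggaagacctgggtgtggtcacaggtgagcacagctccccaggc
TGANTCA, which reads the same on both strands, was found in 7 of the 27 tested Serpin genes and in 6.9% of all promoters. The 7 were Serpina1b and 6 genes of the chromosome 1 cluster, namely Serpinb2, Serpinb5, Serpinb7, Serpinb8, Serpinb10 and Serpinb11. Of these 6, Serpinb2, Serpinb7 and Serpinb10 rose, Serpinb5 fell, and Serpinb8 and Serpinb11 were not called, while none of the 4 Serpinb3 windows held a match.

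In the cluster on chromosome 13, 2 of 5 tested genes were called higher. Serpinb1a, an inhibitor of the neutrophil proteases elastase, cathepsin G and proteinase 3 (RefSeq position 32842092 to 32853206), stood at 43.2, 87.9 and 63.3 CPM in Control. It was at 156, 123 and 128 CPM in Vehicle, 122, 128 and 152 CPM in UCS and 123, 131 and 104 CPM in UCPRP. Vehicle was 2.09-fold above Control with no overlap (log2 fold change 1.06 ± 0.22 SE, adjusted p = 0.00603 in edgeR). Serpinb6a, an intracellular inhibitor of cathepsin G and trypsin-like proteases, was at 54.3, 81.5 and 59.5 CPM in Control and 119, 93.2 and 106 CPM in Vehicle. It was at 102, 98.7 and 101 CPM in UCS and 113, 104 and 79.8 CPM in UCPRP, and its highest Control library was above its lowest UCPRP library. The log2 fold change in Vehicle was 0.71 (SE 0.17, adjusted p = 0.0132 in edgeR), and the call was lost without Control 1 (0.0541), Control 3 (0.0501) or Vehicle 1 (0.0537). Serpinb6a overlaps Nqo2 and Ripk1 on the opposite strand, and the sources used here do not state whether counting used strand. Serpinb9, the inhibitor of granzyme B, averaged 28.5 ± 4.37 CPM in uninjured corneas and 36 ± 9.33 CPM in Vehicle, and it was not called, nor were Serpinb6b (6.75 ± 1.8 and 8.13 ± 2.23 CPM) and Serpinb1b (0.45 ± 0.232 and 0.62 ± 0.192 CPM).

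Of the 7 tested clade A genes on chromosome 12, 6 were called higher in Vehicle. Serpina3n was by far the most abundant of them. It encodes a secreted inhibitor related to human antichymotrypsin that rises in acute inflammation and inhibits granzyme B and cathepsin G. Serpina3n was at 223, 211 and 245 CPM in Control, 804, 571 and 389.7 CPM in Vehicle, 497, 333 and 329 CPM in UCS and 532, 279 and 265 CPM in UCPRP. All injured libraries were above Control, and Vehicle was 2.6-fold higher (log2 fold change 1.38 ± 0.31 SE, adjusted p = 0.0113 in edgeR).

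Its smaller relatives varied more between libraries. Serpina3g, an intracellular inhibitor of cathepsins found in leukocytes, stood at 1.6, 2.85 and 4.14 CPM in Control, 24.1, 24.1 and 8.22 CPM in Vehicle, 5.31, 5.68 and 23.6 CPM in UCS and 4.91, 2.87 and 7.71 CPM in UCPRP. Serpina3i was at 0.824, 1.07 and 1.24 CPM in Control, 6.91, 6.2 and 1.84 CPM in Vehicle, 1.38, 1.82 and 4.54 CPM in UCS and 1.44, 0.821 and 1.49 CPM in UCPRP. Serpina3f was at 0.154, 0.83 and 1.04 CPM in Control and 3.3, 2.88 and 0.612 CPM in Vehicle, where the groups overlap. In Serpina3g and Serpina3i all Vehicle libraries were above Control, while UCPRP libraries overlapped it. For all 3 genes the highest libraries were Vehicle 1, Vehicle 2 and UCS 3. The summed neutrophil markers were highest in the same 3 libraries, at 512, 499 and 187 CPM. They were at 19 to 36.4 CPM in Control and 67.5 to 135 CPM in the other injured libraries. Of 7 tested neutrophil markers, 6 were called higher in Vehicle. This ranking was not particular to neutrophils. The summed macrophage markers (1042, 906 and 984 CPM) and kallikreins, epithelial serine proteases (255, 199 and 161 CPM), were highest in the same 3 libraries. The part of any of these lists in the Serpina3 results was not tested.

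In Vehicle against Control, Serpina3g had a log2 fold change of 2.71 (SE 0.67) and Serpina3i one of 2.25 (SE 0.56), both with an edgeR adjusted p of 0.0171. The Serpina3g call was lost without Control 1 (0.0689), Control 2 (0.0615), Vehicle 1 (0.052) or Vehicle 2 (0.0549), and so was that of Serpina3i (0.0656, 0.0571, 0.062 and 0.0554), which was lost with Dbp class as a term too (0.0546). Serpina3f was not called (log2 fold change 1.75 ± 0.84 SE, adjusted p = 0.198 in edgeR). Of 75-base stretches, 8.9% in Serpina3g, 6.9% in Serpina3i and 5.6% in Serpina3f also occur in other genes, mostly their own relatives.

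The loops of the Serpina3 genes also differ, and are shown for 3 tested members because the loop is what distinguishes their targets. Each run has 60 bases from the hinge, in the last of 4 coding exons on the plus strand of chromosome 12 (GRCm38, GENCODE M21), and capitals mark differences from Serpina3n.
Serpina3n, chr12:104413442-104413501: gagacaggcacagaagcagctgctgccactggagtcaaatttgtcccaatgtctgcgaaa
Serpina3i, chr12:104268474-104268533: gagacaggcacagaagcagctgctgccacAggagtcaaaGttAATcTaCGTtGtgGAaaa
Serpina3f, chr12:104220239-104220298: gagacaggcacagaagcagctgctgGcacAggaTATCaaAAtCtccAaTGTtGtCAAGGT
Serpina3i differed from Serpina3n at 1 of the first 30 bases and at 11 of the last 30, and Serpina3f at 2 and 18. Bases near the hinge were thus nearly the same in the 3 genes, while those farther on were not.

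Upstream of Serpina3g, Serpina3i and Serpina3f lies a match to the STAT letters TTCNNNGAA, and the windows of both called genes are shown with it in capitals (plus strand, RefSeq, GRCm38.p6).
Serpina3g, chr12:104235897-104236146: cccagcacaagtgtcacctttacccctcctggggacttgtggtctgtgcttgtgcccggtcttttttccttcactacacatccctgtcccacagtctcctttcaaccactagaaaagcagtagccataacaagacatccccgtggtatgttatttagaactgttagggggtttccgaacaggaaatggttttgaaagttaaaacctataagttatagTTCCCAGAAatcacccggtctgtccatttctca
Serpina3i, chr12:104262872-104263121: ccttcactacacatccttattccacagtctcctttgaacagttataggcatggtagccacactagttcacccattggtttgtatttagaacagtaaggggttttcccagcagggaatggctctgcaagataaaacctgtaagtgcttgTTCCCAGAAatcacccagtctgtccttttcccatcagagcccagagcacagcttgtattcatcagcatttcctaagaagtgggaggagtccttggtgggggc
TTCNNNGAA, which also reads the same on both strands, was found in 4 of the 27 tested Serpin genes (these 3 and Serpinb6a) and in 7.2% of all promoters. The window of Serpina3n held none. Also searched on both strands were a loose NF-kB pattern (11 of 27, 45.4% of all promoters), an interferon response pattern (2 of 27, 3.0%), the GC box GGGCGG (5 of 27, 32.9%), and the clock letters CACGTG (0 of 27, 6.0%) and TTANGTAA (0 of 27, 2.1%). Matches of different motifs can overlap, and a match is a description of the window only.

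The remaining clade A calls were at low levels. Serpina1b and Serpina1e encode forms of alpha-1 antitrypsin, the elastase inhibitor that the liver secretes into plasma. Serpina1b was at 0.515, 0.415 and 0.311 CPM in Control, 1.75, 1.56 and 3.83 CPM in Vehicle, 4.46, 1.87 and 3.78 CPM in UCS and 1.49, 3.08 and 1.59 CPM in UCPRP (log2 fold change 2.51 ± 0.51 SE for Vehicle, adjusted p = 0.00607 in edgeR). Serpina1e was at 0.206, 0.296 and 0 CPM in Control, 1.75, 1.03 and 1.74 CPM in Vehicle, 2.07, 1.02 and 2.5 CPM in UCS and 1.23, 1.39 and 1.44 CPM in UCPRP (log2 fold change 3.15 ± 0.64 SE, adjusted p = 0.00578 in edgeR). Of their 75-base stretches, 25.1% and 20.3% also occur in other Serpina1 genes, so which copy the counts belong to is uncertain. The liver gene Alb was at 0 to 0.106 CPM in every library, and the liver list summed to 259 to 356 CPM in Control and 75.9 to 257 CPM after injury. Serpina9, or centerin, a serpin of germinal centre B cells, was at 0.875, 1.19 and 2.02 CPM in Control, 4.39, 3.76 and 6.43 CPM in Vehicle, 9.19, 5.46 and 8.83 CPM in UCS and 6.13, 6.62 and 6.17 CPM in UCPRP (log2 fold change 1.83 ± 0.33 SE for Vehicle, adjusted p = 0.00296 in edgeR). All 3 genes had every injured library above every Control library.

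Among the 9 tested genes of clades D to I, 2 were called higher in Vehicle. Serpinh1, the endoplasmic reticulum chaperone that collagen needs to fold, stood at 138, 169.5 and 117 CPM in Control. It was at 223, 213 and 300.3 CPM in Vehicle, 175, 245 and 168 CPM in UCS and 213, 230.5 and 214 CPM in UCPRP. Vehicle did not overlap Control, and the log2 fold change was 0.80 (SE 0.19, adjusted p = 0.0135 in edgeR; without Control 3, 0.0517). Serpine3 was at 4.38, 2.67 and 11.2 CPM in Control, 43.7, 14.1 and 20.2 CPM in Vehicle, 13, 10.3 and 26.2 CPM in UCS and 16.6, 9.5 and 13.3 CPM in UCPRP (log2 fold change 2.09 ± 0.57 SE for Vehicle, adjusted p = 0.0277 in edgeR). Vehicle did not overlap Control, and UCS and UCPRP did. The call was lost without Control 1 (0.0973), Control 2 (0.0956) or Vehicle 1 (0.115), with the retina markers as a covariate (0.0645) and with these 2 groups alone (0.0726). Serpine3 overlaps Ints6 on the opposite strand.

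Serpine2, or protease nexin, which inhibits thrombin and urokinase, was at 77.8, 77.4 and 79.3 CPM in Control, 132, 122 and 110.4 CPM in Vehicle, 113, 79.1 and 76.9 CPM in UCS and 98.7, 98.9 and 52.3 CPM in UCPRP. For Serpine2 the Vehicle libraries lay above Control, and the log2 fold change was 0.63 (SE 0.22, adjusted p = 0.0789 in edgeR). It was called without UCPRP 3 (0.0134), which was its lowest library, and with these 2 groups alone (0.0103).

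Serping1 was at 263, 290.1 and 252 CPM in Control, 380.5, 301 and 406 CPM in Vehicle, 363, 397 and 362 CPM in UCS and 431, 357 and 302 CPM in UCPRP. All 9 injured libraries lay above Control, but the change was small and not called (log2 fold change 0.43 ± 0.15 SE for Vehicle, adjusted p = 0.0805 in edgeR; without Vehicle 2, 0.0394; by DESeq2, 0.0296). Serpinf1, which restrains vessel growth, was at 203, 318 and 151 CPM in Control, 211, 191 and 446 CPM in Vehicle, 262, 306 and 240.3 CPM in UCS and 334, 405 and 242 CPM in UCPRP (log2 fold change 0.34 ± 0.35 SE, adjusted p = 0.598 in edgeR). Its 3 highest libraries, Vehicle 3, UCPRP 1 and UCPRP 2, were also the highest for the summed keratocyte markers. Serpini1, or neuroserpin, the inhibitor of tissue plasminogen activator in nerve tissue, was at 7.35 to 13.2 CPM in Control, 5.78 to 13.7 CPM in Vehicle, 6.85 to 10.5 CPM in UCS and 7.73 to 19.8 CPM in UCPRP (log2 fold change −0.07, 95% interval −0.91 to 0.77). Its 3 highest libraries, Vehicle 2, UCPRP 2 and UCPRP 3, were those with the highest retina marker sums. Serpind1, heparin cofactor II, ran from 0 to 5.45 CPM, and its 5 highest libraries were the 5 with the highest lens marker sums. It also overlaps Pi4ka on the opposite strand. Whether the marker lists have a part in these levels was not tested. Serpinf2, alpha-2 antiplasmin, averaged 0.678 ± 0.236 CPM in Control against 0.662 ± 0.319 CPM in Vehicle.

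**Figure D4:**
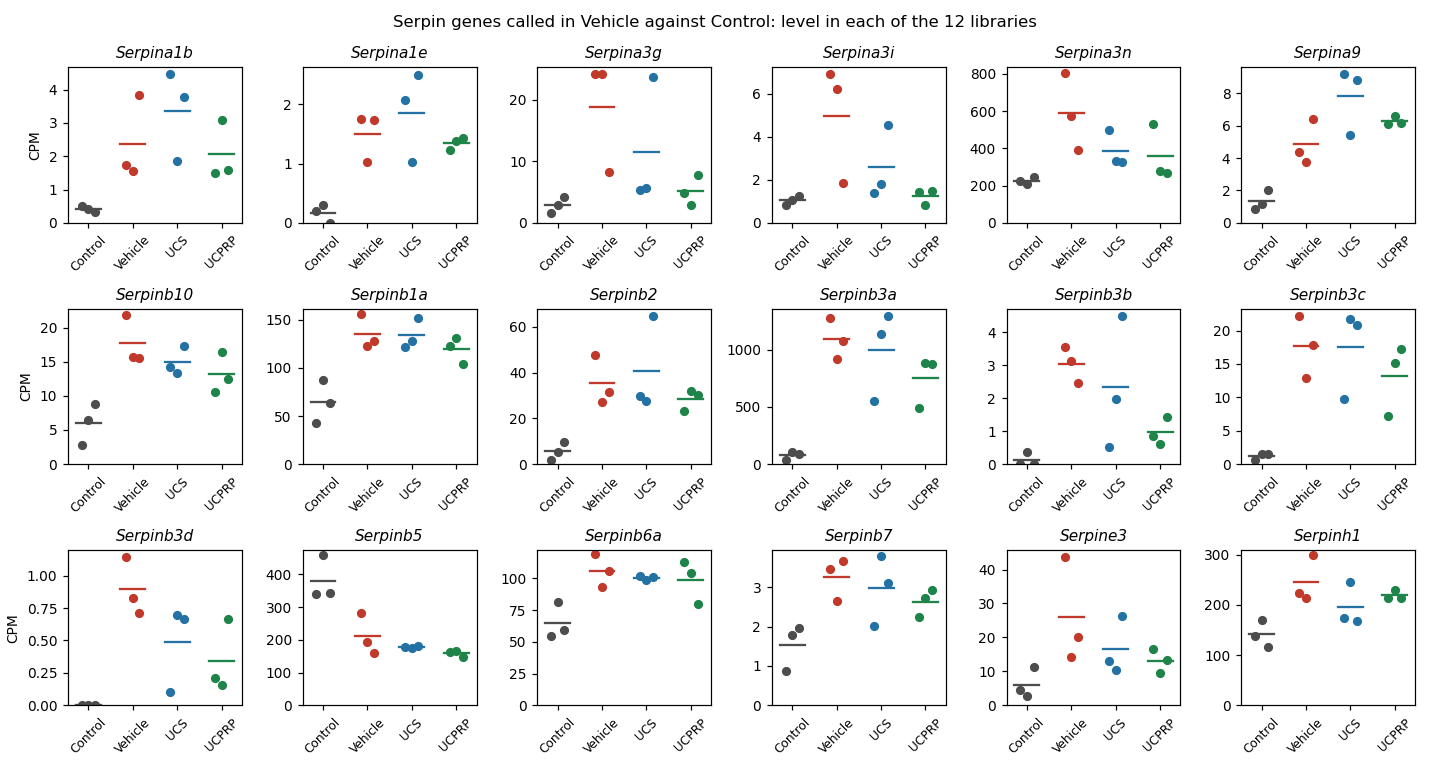
CPM in each of the 12 libraries (points, 3 per group) and the group mean (line) of the 18 Serpin genes called in Vehicle against Control, with a separate linear axis from 0 for each gene. Serpinb3a, Serpinb2 and Serpina9 have all injured libraries well above Control, Serpinb5 has them all below, and in Serpina3g and Serpina3i Vehicle 1, Vehicle 2 and UCS 3 stand above the rest.

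Among high-Dbp libraries (2 Control and 1 Vehicle) and among low-Dbp libraries (1 Control and 2 Vehicle) 1 side of each comparison was a single library, so these values, added after seeing the data, are given as a description. The log2 fold change of Serpinb3a was 3.86 in the former and 3.64 in the latter. For Serpina3n they were 0.84 and 1.48, for Serpina3g 1.89 and 2.53, and for Serpina3i 0.95 and 2.39. Other called genes had the larger change among high-Dbp libraries, among them Serpinb10 (1.77 and 1.09), Serpinb5 (−1.31 and −0.54) and Serpine3 (2.51 and 1.36). The only high-Dbp Vehicle library was Vehicle 3, and the only low-Dbp Control library was Control 3. A difference between Dbp classes thus cannot be told apart from one between single libraries. Leaving out any 1 of the 12 libraries kept 12 of the 18 calls.

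The treated groups were also compared with uninjured corneas, which asks how far each differed from Control after injury and treatment. The 3 comparisons share the Control libraries and are given side by side. In UCS, 11 of 31 Serpin genes were called higher (35.5%; 6.40% of all genes) and 1 lower (4.47% of all genes), with a median log2 fold change of 0.77. In UCPRP, 9 were higher (29.0%; 5.30% of all genes) and 1 lower (5.07% of all genes), with a median of 0.63. The medians over all genes were −0.01 and 0.04. Serpinb5 was the gene called lower in both, with log2 fold changes of −1.09 (SE 0.19, adjusted p = 0.00358 in edgeR) and −1.26 (SE 0.19, adjusted p = 0.00197 in edgeR). Among the genes called higher, Serpina1b, Serpina1e, Serpinb3d and, in UCS, Serpinb3b were not above the filter level of 0.526 CPM in every Control library. The shares called higher here, and in all 3 comparisons together, were not taken again without such genes.

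Called higher in each of the 3 comparisons, which share their Control libraries, were 9 of the 31 genes, where 4.32% of all genes tested were: Serpina1b, Serpina1e, Serpina9, Serpinb1a, Serpinb2, Serpinb3a, Serpinb3c, Serpinb3d and Serpinb6a. Serpinb3a had log2 fold changes of 3.66 in UCS (SE 0.43, adjusted p = 4.24e-04 in edgeR) and 3.26 in UCPRP (SE 0.43, adjusted p = 8.23e-04 in edgeR), beside 3.79 in Vehicle. Serpinb2 had 2.84 and 2.32 beside 2.64, and Serpina9 had 2.52 and 2.21 beside 1.83. Serpinb10 and Serpinb3b were called in Vehicle and UCS, and in UCPRP had adjusted p values of 0.0558 and 0.0965 (edgeR). Serpina3g, Serpina3i, Serpina3n, Serpinb7, Serpine3 and Serpinh1 were called in Vehicle alone, which does not show that the groups differ. By DESeq2, Serpina3g (adjusted p = 0.0108) was also called in UCS, and Serpinb10 (0.0121), Serpinb3b (0.0161) and Serpinh1 (0.0156) in UCPRP. DESeq2 called Serping1 in UCS (0.0163) and UCPRP (0.0437) as well.

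Some of these calls changed with the libraries or the fit. For UCS, 8 of 12 calls were kept whichever library was left out, and the lost ones were Serpinb10 (up to 0.0995, without UCS 3; also without Control 2, UCS 1 or UCS 2), Serpinb3b (0.0616 to 0.0695, without Control 1, Control 3 or UCS 3), Serpinb3d (0.0508 to 0.0667, without any Control library, UCS 2 or UCS 3) and Serpinb6a (0.0801 to 0.118, without Control 1, Control 3 or any UCS library). The number of genes called higher was 7 without UCS 3. For UCPRP, 5 of 10 were kept, namely Serpina1e, Serpina9, Serpinb3a, Serpinb3c and Serpinb5. Serpina1b (0.0576 to 0.0624) was lost without Control 2, Control 3 or UCPRP 2, Serpinb2 (0.0563) without Control 2, and Serpinb1a (0.052 to 0.0842) without Control 1, Control 3, UCPRP 1 or UCPRP 2. Serpinb3d (0.0536 to 0.117) was lost without any library other than UCS 1 or UCPRP 2, and Serpinb6a (0.0553 to 0.136) without any other than Control 2, Vehicle 1, Vehicle 2 or UCPRP 3. Other fits ended some of the same calls. With the replicate number as a block, Serpinb6a was lost in UCS (0.0522), and Serpinb6a (0.0671) and Serpinb3d (0.0748) in UCPRP. With Dbp class as a term, Serpinb6a (0.0766) and Serpinb3d (0.0682) were lost in UCPRP, and Serpinb10 was gained there (0.0452). With the retina covariate Serpinb3d was lost in UCPRP (0.0519). The same edgeR fit gained Serpina3n (0.0485), Serpinh1 (0.0485) and Serping1 (0.0245) in UCPRP, and Serping1 in UCS (0.0221). In Vehicle against Control it gained Serping1 (0.0268) and Serpine2 (0.0461). With 2 groups alone, Serpinb10 (0.0875), Serpinb3b (0.0796) and Serpinb6a (0.0572) were lost in UCS, and Serpinb1a (0.0829) and Serpinb6a (0.125) in UCPRP. Serpinb3d was too low to pass the count filter in either of these fits. Leaving out a library also gained calls: in UCS, Serpine3 without Control 3 (0.04), and in UCPRP, Serpinb10 without Control 3 (0.0219), Serpinb3b without Control 2 (0.0417) and Serpinh1 without Control 2 (0.0472), Vehicle 3 (0.0412) or UCS 2 (0.0403).

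The effect of each biologic was asked by comparison with Vehicle. No Serpin gene was called in UCS against Vehicle, in UCPRP against Vehicle or in UCPRP against UCS, and edgeR called 0% of all 16124 genes in each. At an unadjusted p under 0.05 there were 1, 5 and 1 of the 31 Serpin genes, and 782, 1572 and 393 of all genes. DESeq2 called no Serpin gene in the first and the last and 1 in UCPRP against Vehicle, Serpina3i. The unadjusted 95% interval of a Serpin log2 fold change reached a median of 0.78 to either side. Differences below that size were thus mostly not detectable with 3 pools a group. After adjustment over all 16124 genes the limit was wider still. The lowest Serpin log2 fold change in UCPRP against Vehicle, −2.02, was not called either.

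Of the 5 genes with an unadjusted p under 0.05 between UCPRP and Vehicle, 4 were the tested Serpina3 genes. Serpina3i was at 0.821 to 1.49 CPM in UCPRP, below the 1.84 to 6.91 CPM of Vehicle and overlapping the 0.824 to 1.24 CPM of Control (log2 fold change −1.99, 95% interval −3.19 to −0.79, unadjusted p = 0.00377, edgeR adjusted p = 0.342). Its adjusted p was 0.0493 by DESeq2 and 0.0411 by edgeR without Vehicle 3, the lowest of the Vehicle libraries for this gene. Vehicle 3 was also the only high-Dbp Vehicle library, and all UCPRP libraries were high-Dbp. Without it, group and Dbp class cannot be told apart. Serpina3g had a log2 fold change of −1.86 (95% interval −3.27 to −0.46, edgeR adjusted p = 0.395), Serpina3f one of −2.02 (−3.88 to −0.15, adjusted p = 0.476) and Serpina3n one of −0.71 (−1.39 to −0.03, adjusted p = 0.492). The neutrophil marker sum was 73.5 to 122 CPM in UCPRP and 135 to 512 CPM in Vehicle. The macrophage marker sum was 694 to 716 CPM in UCPRP and 854 to 1042 CPM in Vehicle. The part of either list in these values was not tested. Serpine2 was the fifth gene with an unadjusted p under 0.05 (log2 fold change −0.54, 95% interval −1.03 to −0.05, adjusted p = 0.472).

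In UCPRP against Vehicle 6 Serpin genes had all UCPRP libraries below all Vehicle libraries, against 7.13% of all genes. They were Serpina3g, Serpina3i, Serpinb3a, Serpinb3b, Serpinb3d and Serpine2. For Serpinb3a the log2 fold change was −0.54 with an interval of −1.40 to 0.32, and for Serpinb3b −1.64 with −3.32 to 0.03. In UCS against Vehicle 1 gene lay fully below, Serpinb3d, against 4.43% of all genes, and the lowest unadjusted p was that of Serpina9, whose UCS mean was higher (7.83 ± 2.06 and 4.86 ± 1.4 CPM; log2 fold change 0.69, 95% interval 0.03 to 1.35, unadjusted p = 0.043, edgeR adjusted p = 1). For Serpinb3a, UCS and Vehicle differed by −0.13 on the log2 scale with an interval of −0.99 to 0.72, and for Serpinb5 by −0.25 with −0.66 to 0.16.

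The biologics were given at the same strength and schedule, and were compared with each other. The largest difference between UCPRP and UCS was in Serpina3f (0.64, 0.308 and 0.719 CPM, and 0.903, 0.857 and 4.59 CPM; log2 fold change −1.92, 95% interval −3.79 to −0.05, edgeR adjusted p = 0.985). The 4 genes with all UCPRP libraries below all UCS libraries were Serpina3f, Serpinb5, Serpinb8 and Serpinb11, against 5.73% of all genes. For Serpinb11 the log2 fold change was −0.26 (−0.69 to 0.16), for Serpinb8 −0.19 (−0.62 to 0.24) and for Serpinb5 −0.16 (−0.57 to 0.25). These intervals include 0 and also include moderate differences, so they do not show that UCS and UCPRP act alike.

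**Figure D5:**
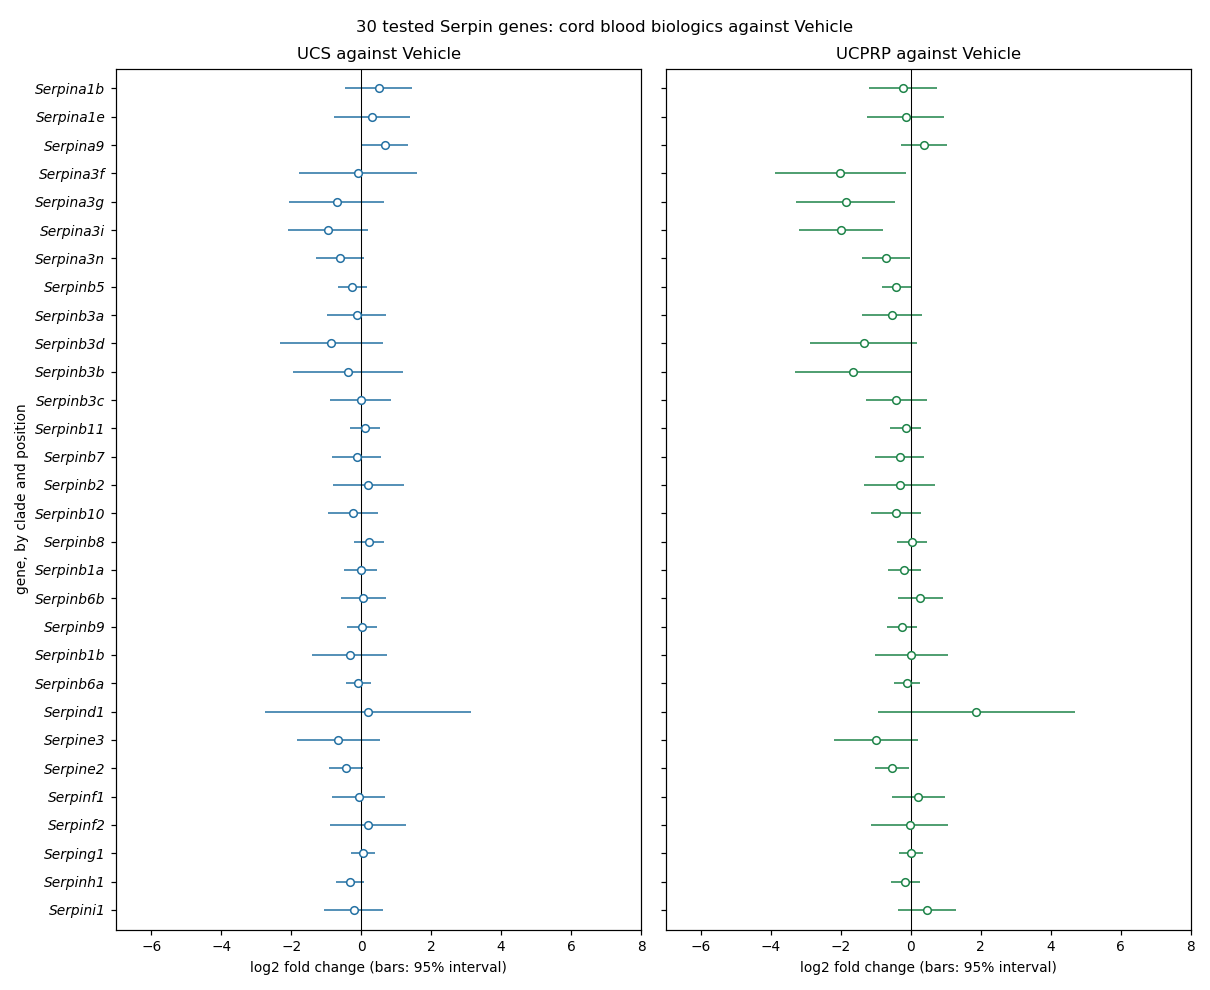
Log2 fold change (points) with its 95% interval (bars) of 30 tested Serpin genes in UCS (left) and UCPRP (right), each against the same 3 Vehicle libraries. In UCPRP the intervals of Serpina3f, Serpina3g, Serpina3i, Serpina3n and Serpine2 lie below 0 before adjustment, and no gene in either panel had an adjusted p under 0.05.

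Genes that work beside the Serpins were counted in Vehicle against Control from lists of their target proteases and partners. Over all lists, 108 genes were tested, of which 38 were called higher (35.2%) and 8 lower (7.41%), where all genes gave 9.58% and 6.92%. Of the plasminogen activation genes 4 of 9 tested rose and none fell. Plaur, the urokinase receptor, averaged 17.3 ± 10.3 CPM in Vehicle against 1.65 ± 0.675 CPM in Control (log2 fold change 3.39 ± 0.50 SE, adjusted p = 9.06e-04 in edgeR), and Plau, urokinase, averaged 33 ± 14.4 CPM in Vehicle against 16.5 ± 1.49 CPM in Control (adjusted p = 0.0164). Among coagulation genes 4 of 14 rose, including Tfpi2, an inhibitor of plasmin and tissue factor activity (2.64 on the log2 scale), and 1 fell, F3, the tissue factor itself. Of 12 cathepsins 6 rose and 1 fell, with Ctss at 118 ± 25.4 CPM in Vehicle against 40.9 ± 8.37 CPM in Control and Ctsk at 74.1 ± 27 against 26 ± 7.01 CPM. None of the 6 tested granule serine proteases was called. The most abundant, the mast cell tryptase Tpsb2, averaged 4.18 ± 2.53 CPM in Control against 4.05 ± 0.892 CPM in Vehicle. Neutrophil elastase, cathepsin G and proteinase 3, the targets named above for Serpinb1a, had too few counts to test. Granzyme B (Gzmb), which Serpinb9 and Serpina3n inhibit, was tested and not called (log2 fold change 1.27 ± 0.67 SE, adjusted p = 0.242 in edgeR).

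Epithelial proteases moved both ways. Of 6 kallikreins, serine proteases of stratified epithelium, 4 rose, among them Klk13 (32 ± 10.2 CPM in Vehicle, 1.8 ± 0.894 CPM in Control, log2 fold change 4.15 ± 1.02 SE, adjusted p = 0.0168 in edgeR) and Klk10 (1.75). Of 13 membrane-anchored serine proteases 4 fell and 2 rose, and Tmprss11a fell from 642 ± 46.2 to 198 ± 68.5 CPM. Complement initiation genes, whose proteases Serping1 inhibits, rose in 7 of 8 cases, with C1qa at 95.2 ± 3.66 CPM in Vehicle against 34.8 ± 4.44 CPM in Control. Collagen and collagen folding genes rose in 7 of 18 cases beside Serpinh1, with Col3a1 at 695 ± 95.2 CPM in Vehicle against 145 ± 38.1 CPM in Control. Protease inhibitors of other families rose in 4 of 16 cases and fell in 1, with Timp1 (3.74), Slpi (3.35) and Wfdc2 (2.52) having the largest log2 fold changes. In either biologic against Vehicle 0 of the 108 were called by edgeR, as were 0% of all genes.

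Markers of other cells moved with the injury as well. All 9 macrophage markers were called higher in Vehicle, with sums of 221 to 311 CPM in Control, 854 to 1042 CPM in Vehicle, 604 to 984 CPM in UCS and 694 to 716 CPM in UCPRP, and their genes include 3 of the complement list. All 10 goblet cell and conjunctival markers were called higher, with sums of 13746 to 19923 CPM in Vehicle, 16447 to 20559 CPM in UCS and 15084 to 19625 CPM in UCPRP. Both Serpinb3a and the goblet cell and conjunctival sum were higher in every injured library than in every Control library. Among the 5 libraries with the highest Serpinb3a and the 5 with the highest such sum, 2 were shared. All of these were injured libraries, so that count describes only the order among them. The part of either cell type in the Serpin results was not tested.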

How the data were processed

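RNA of 12 pooled cornea libraries, 3 for each of 4 groups, was measured. Per the labels' protocols, total RNA was taken with the Qiagen RNeasy kit and made into TruSeq Stranded Total RNA libraries. The submitters' processing notes name HISAT and GRCm38 without version, and no source used here states the counter, the annotation or whether strand was used. What the authors deposited are estimated counts by gene, unscaled for depth, of which 64.9% were whole numbers. They were rounded, filtered with filterByExpr (minimum count 10, leaving 16124 of 19702 genes), scaled with TMM and tested with edgeR 4.0.16 (R 4.3.3; robust quasi-likelihood F test, 1 term per group over all 12 libraries), with Benjamini-Hochberg adjustment over all genes and a threshold of 0.05. Standard errors (the size of the log2 fold change over the root of F) follow from the test, and 95% intervals use the test's degrees of freedom. The fit was tested on simulated data.

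Gene positions are from RefSeq (GRCm38.p6), lengths, strand, overlaps and coding sequences from GENCODE M21, and promoters from RefSeq, where 46 of 55 Serpin genes and 27 of the 31 tested matched an entry. The longest coding transcript stood for each gene. Named were every Serpin gene called in any comparison, the 10 most abundant per kb and 12 others, and in each partner list the 3 largest called changes in Vehicle or else the most abundant gene; genes given as the only one of a list to fall were chosen after their values were seen. Single values of some genes that this rule names are not reported here. The members and lists were chosen with earlier results of these data known. Alternatives were other size factors, DESeq2 1.42.0, other count filters, 2 groups alone, a replicate block, clock and retina covariates, and leaving out each library; fits within each Dbp class were added after seeing the data. P-values measure the spread between these pools.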

Additional observations from a re-analysis of the deposited data

How the results depend on the processing

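Leaving aside the fits within a Dbp class, 24 of 40 calls of named Serpin genes against Control were kept under every alternative that tested the gene. The other 16 were lost under at least 1, and no call changed direction. A gene under the filter of an alternative was not tested there and is not counted as lost. Serpina1e and Serpinb3d, with at most 49 and 22.1 counts in a library, are too low for the minimum count of 50. With 3 pools a group, counting depth limits only the lowest genes. Fits within a Dbp class have fewer libraries, with 1 arm of a single library in Vehicle against Control and, among low-Dbp libraries, 1 library in each arm of UCS against Control, so their counts say little about stability. Among high-Dbp libraries 3 Serpin genes were higher in Vehicle against Control, 7 in UCS against Control and 5 in UCPRP against Control; all genes called were 574, 1027 and 1009, and partner genes 16. Among low-Dbp libraries 1 Serpin gene was higher and 0 lower in Vehicle, with 154 genes and 5 partner genes called, and 0 were higher or lower in UCS, with 0 genes called. Fitting 2 groups alone gave 0 lower in Vehicle and 7 higher in UCS. Without a count filter 2 were lower in UCPRP against Control. DESeq2 called 13 genes in UCS against Vehicle and 145 in UCPRP against Vehicle, 1 of them a Serpin gene, which was lower.

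Leaving out 1 library gave 12 to 17 Serpin genes higher in Vehicle, 7 to 11 in UCS (7 without UCS 3) and 6 to 8 in UCPRP, all against Control. All genes called ran from 1935 to 2550, 1089 (without UCS 3) to 1787, and 998 (without UCPRP 3; 1009 without UCPRP 2) to 1709, and partner genes from 33 to 45 in Vehicle. Against Vehicle, UCS had 0 to 37 genes called and UCPRP 0 to 195, with 0 to 1 Serpin gene lower and 0 to 2 partner genes, each highest without Vehicle 3. In UCPRP against Vehicle without Vehicle 3, every Vehicle library left was low-Dbp and every UCPRP library high-Dbp, so group and Dbp class cannot be told apart.

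Replicate numbers did not pair the libraries throughout. Correlations of deviations between same-numbered libraries ran from −0.637 to 0.559, 7 of 18 were over 0.1, and 4 of 12 libraries correlated best with their own number. Among the injured groups the replicate 1 pairs were all positive (0.388 to 0.559). Those of replicate 2 ran from −0.434 to 0.29 and those of replicate 3 from −0.146 to 0.23. With the replicate block 17 Serpin genes were higher and 1 lower in Vehicle, 10 and 1 in UCS, and 7 and 1 in UCPRP, all against Control.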
